A study of Mus musculus with 12 samples.

Results

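The regions described here were 9392 intronic sites that were open in mouse embryonic stem cells (mESCs) and not in mouse embryonic fibroblasts (MEFs), out of 91354 peaks in the set that joins the BGI peaks of the 2 cell types. They were chosen by position and by the authors' lists of reproducible peaks: each site lay more than 1 kb from any annotated transcription start site (TSS), overlapped a gene body but no exon, overlapped the mESC peak lists of both sequencing platforms by at least 1 bp, and overlapped neither MEF list. They made up 9392 of the 28076 intronic distal sites of that peak set. The same positions were compared with 9802 intronic sites listed in MEFs but not in mESCs (MEF-only intronic sites), 3928 intronic sites listed in both cell types (shared intronic sites), and 9428 sites outside genes that were listed in mESCs but not in MEFs (mESC-only intergenic sites). Because list membership chose the sites, every mESC against MEF value below is a description; counts of calls from the fit over all peaks are given beside the share of all peaks called and support nothing.

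The study asked how the choice of sequencer affects open chromatin profiles. Omni-ATAC-seq, in which the Tn5 transposase cuts and tags open DNA so that read density reports accessibility, was run on MEFs sorted as THY1+ and on mESCs sorted as THY1-/SSEA1+/EPCAM+, all of a C57/Bl6 background and all taken from culture. There were 3 libraries for each cell type, numbered 1, 2 and 4 in MEFs and 1, 3 and 5 in mESCs, and the same 6 libraries were sequenced with 2 machines, the DNBSEQ-G400 of BGI and the HiSeqX10 of Illumina. The 12 samples thus formed 4 groups of 3 (MEF or mESC, BGI or Illumina), with no treatment and no allele named in any of them.

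Enhancers are stretches of regulatory DNA that transcription factors hold open, often inside the introns of the gene they regulate or of a neighbour. In mESCs the factors OCT4 (Pou5f1), SOX2, NANOG, ESRRB, the KLF factors and TFCP2L1 bind such sites and maintain the ability to form every tissue of the embryo. OCT4 and SOX2 often bind side by side on a joined element, the OCT4-SOX2 composite. In fibroblasts many distal sites are held open by AP-1, TEAD and RUNX factors, and CTCF, which folds chromosomes into loops, binds many of its sites in most cell types.

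The first sequences show the elements that the sites hold. They are 60-base windows of the plus strand of GRCm38, read from the RefSeq copy of the build, with the matching letters in capitals. Intron numbers here and below follow a transcript of the host gene that spans the site, which need not be the gene's main one. The first pair are the sites with an exact OCT4-SOX2 composite (CATTGTNATGCAAA, either strand) within 100 bp of the peak centre. Only 3 of the 9392 sites held these exact letters anywhere, which was too few to describe.

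Fbxl17, intron 7 of 8, chr17:63176594-63176653: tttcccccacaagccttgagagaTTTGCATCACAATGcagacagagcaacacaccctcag
Ebf1, intron 6 of 15, chr11:44841859-44841918: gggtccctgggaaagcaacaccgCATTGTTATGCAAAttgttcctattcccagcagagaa

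The search was therefore widened, after this result was seen, to allow any 2 of the 13 set letters to differ. The next 4 windows are the sites with the highest mESC level among those with such a match, and not an exact one, within 100 bp of the centre. Each differs from the composite at 2 letters. The first lies in Tfcp2l1, itself a factor of the naive pluripotent state.

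Tfcp2l1, intron 2 of 14, chr1:118648158-118648217: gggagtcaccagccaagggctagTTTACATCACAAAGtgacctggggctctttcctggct
Ift52, intron 8 of 12, chr2:163031907-163031966: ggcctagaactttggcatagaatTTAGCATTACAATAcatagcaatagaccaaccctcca
Cep68, intron 5 of 6, chr11:20231421-20231480: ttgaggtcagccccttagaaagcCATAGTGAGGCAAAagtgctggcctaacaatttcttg
BC052040, intron 10 of 10, chr2:115723622-115723681: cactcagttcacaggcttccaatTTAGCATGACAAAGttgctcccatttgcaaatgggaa

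The octamer ATGCAAAT is the core of OCT4 binding, and TCAAGGTCA is the extended response element of ESRRB, an orphan nuclear receptor. The windows below show them in sites of pluripotency and DNA methylation genes and in the highest sites that held the ESRRB letters near the centre. The capitals read ATTTGCAT where the octamer was on the minus strand.

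Tet1, intron 1 of 2, chr10:62902983-62903042: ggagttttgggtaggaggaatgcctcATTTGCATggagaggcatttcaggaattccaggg
L1td1, intron 2 of 4, chr4:98728161-98728220: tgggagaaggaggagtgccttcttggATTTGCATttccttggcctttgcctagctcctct
Esrrb, intron 3 of 6, chr12:86502034-86502093: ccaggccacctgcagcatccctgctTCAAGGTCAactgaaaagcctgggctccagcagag
Dnmt3a, intron 6 of 22, chr12:3890083-3890142: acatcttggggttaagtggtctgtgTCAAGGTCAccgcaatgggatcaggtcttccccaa
Gpx4, intron 2 of 6, chr10:80051494-80051553: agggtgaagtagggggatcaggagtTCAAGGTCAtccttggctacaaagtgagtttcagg
Akap12, intron 1 of 3, chr10:4289762-4289821: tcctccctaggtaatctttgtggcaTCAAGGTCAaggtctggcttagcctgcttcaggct

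The last pair are the highest sites with a CTCF match (CCANNAGNNGGC) within 100 bp of the centre.

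Sec24a, intron 19 of 22, chr11:51703463-51703522: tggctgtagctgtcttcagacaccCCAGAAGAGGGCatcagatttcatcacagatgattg
Sdf2, intron 1 of 2, chr11:78247866-78247925: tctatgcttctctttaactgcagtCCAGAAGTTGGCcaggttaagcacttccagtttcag

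Levels are given as CPM, counts scaled to the library's total of reads in the BGI peak set. The reads in peaks ranged from 15860985 to 21831840 over the 12 samples, so 1 CPM corresponds to some 16 to 22 reads. The sorted cells matched their labels at promoter peaks: all 12 mESC markers, among them Nanog (23.3 CPM in mESCs and 1.01 in MEFs) and Esrrb (25.2 and 0.337), were higher in mESCs, and 11 of 12 MEF markers were higher in MEFs. The exception was Pdgfra, a fibroblast receptor, at 27.3 and 24.7 CPM. Of 11 markers of other cells, Sox17 (18.6 in mESCs and 3.14 in MEFs), Sox1 (26.5 and 4.46) and Eomes (18.7 and 7.72) were the highest in mESCs relative to MEFs, and Cdx2 and Ptprc had no promoter peak. Promoter accessibility is not expression, and the part of other cells in the values below was not tested.

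The mESC-only intronic sites held 10.6, 10.2 and 10.7% of the peak reads in BGI mESC libraries 1, 3 and 5, and 9.90, 9.42 and 9.71% of the same libraries on Illumina. In MEF libraries 1, 2 and 4 they held 1.49, 1.59 and 1.58% on BGI and 1.35, 1.47 and 1.43% on Illumina. The cell types did not overlap on either platform, as the choice of sites required. The median site had 9.20, 8.63 and 9.26 CPM in the BGI mESC libraries and 1.11, 1.24 and 1.19 CPM in the BGI MEF libraries. In bulk samples, fewer cells with a site open and less accessibility per cell cannot be told apart.

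**Figure D1:**
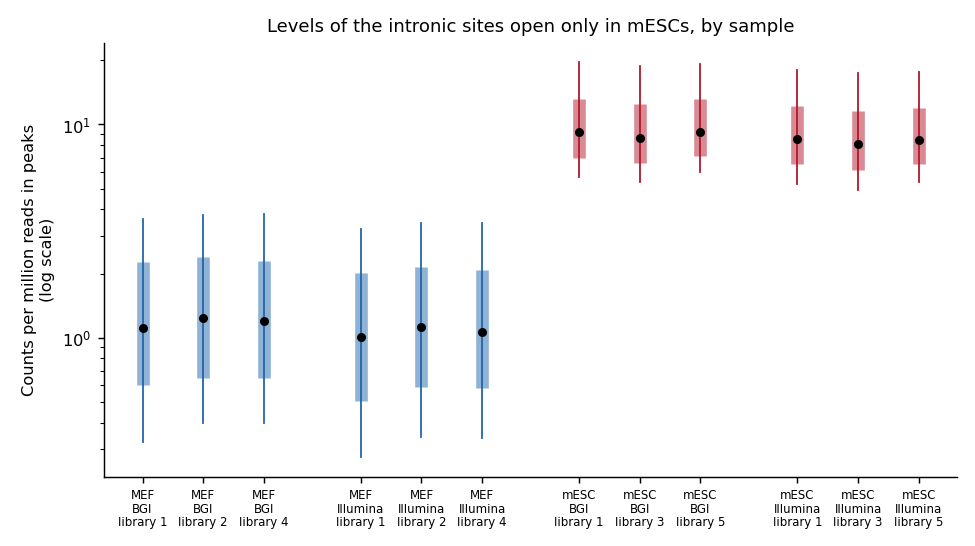
Level of the 9392 mESC-only intronic sites in each of the 12 samples, in CPM on a log axis; points are medians, thick bars span the 25th to 75th percentile and thin lines the 10th to 90th. The medians lie between 8.08 and 9.26 in the 6 mESC samples and between 1.01 and 1.24 in the 6 MEF samples.

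Between mESCs and MEFs on BGI, the median log2 ratio of the sites was 2.98, against -0.08 over all peaks. The middle range from the 10th to the 90th percentile ran from 1.16 to 4.69, 540 sites were above 5 and 13 were below 0. By the quasi-likelihood test of edgeR across all peaks, 9211 sites were higher in mESCs (40.9% of all peaks were), 2 were lower (43.2% of all peaks were) and 179 were not called. The lowest mESC sample was above the highest MEF sample at 9269 sites, where 42.9% of all peaks met this condition. Nothing is read from these counts, because the lists that chose the sites were made from the same reads. Counted in the Illumina samples, the median log2 ratio was 3.01.

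"Open only in mESCs" is a statement about the lists, and single MEF samples often had a weak peak at these sites. MACS2 called a summit inside 9379 to 9390 of the sites in each mESC sample and inside 2733 to 3204 in each MEF sample. The median summit had a -log10 p between 34.2 and 40.3 in mESC samples and between 7.45 and 9.70 in MEF samples. No MEF sample had a summit at 5116 sites (54.5%), whereas all 6 had one at 1785 sites (19.0%). The median log2 ratio on BGI was 3.78 at the former and 1.26 at the latter, a direction that the split itself fixes, since the summits come from the same reads.

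The clearest case against the label was a site in intron 2 of Dennd2a, at chr6:39515724-39516225. It had 7.57, 3.49 and 5.22 CPM in the BGI mESC libraries and 15.6, 18.3 and 19.9 CPM in the BGI MEF libraries. The MEF samples were all higher, with a log2 ratio of -1.80. A site in Gm41505 had 6.94, 6.39 and 8.57 CPM in BGI mESCs and 11.2, 10.5 and 11.7 CPM in BGI MEFs (log2 ratio -0.68). Both were singled out after their values were seen. A site in intron 3 of Lrig1, a negative regulator of receptor tyrosine kinases, had overlapping samples on BGI, with 11.5, 13.2 and 16.4 CPM in mESCs and 12.7, 13.9 and 14.6 CPM in MEFs. On Illumina its samples did not overlap, with 11.2, 11.9 and 13.04 CPM in mESCs and the higher values of 13.4, 15.4 and 14.4 CPM in MEFs (log2 ratio -0.07 on BGI and -0.32 on Illumina). The highest MEF level of all, in the gene model AC141471.2 (18.9 ± 3.42 CPM, SD, n = 3), came with 45.02 ± 4.39 CPM in mESCs.

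The limit on TSS distance separated sites with like levels. Just beyond it, at 1002, 1002 and 1003 bp, sites in March7, BC051537 and Rusc2 had 5.53, 10.6 and 11.4 CPM in BGI mESCs and log2 ratios of 3.24, 3.35 and 2.75. Just within it, at 1000, 1000 and 999 bp, peaks near Cdk5rap2, Nkain4 and Rhbdf2 had 8.21, 12.8 and 14.1 CPM and log2 ratios of 2.76, 2.76 and 2.32. These values are given without a test.

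The sites spread widely over the genome and within genes. The median distance to a TSS was 8490.5 bp; 3103 sites lay 1 to 5 kb away, 4080 at 5 to 20 kb, 1604 at 20 to 50 kb and 605 farther. They fell in 4767 host genes, of which 2821 held 1 site and 60 held at least 10. Counted on a transcript chosen for each site from those that span it, 38.3% of the sites lay in the first intron. The share was 36.8% for MEF-only and 38.9% for shared intronic sites. The host introns and genes were less alike: the median intron was 22841 bp long for mESC-only, 35950 bp for MEF-only and 18888.5 bp for shared sites, and the median host gene was 94641, 148250 and 82607.5 bp long. The X chromosome held 86 of the 9392 sites (0.916%), beside 0.939% of MEF-only intronic sites and 1.55% of mESC-only intergenic sites.

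In base composition the sites were moderate in GC and held more repeat sequence than the other intronic classes, but less than mESC-only intergenic sites. Their median GC content was 49.4%, next to 46.8% at MEF-only, 51.2% at shared intronic and 49.2% at mESC-only intergenic sites. Sequence that RefSeq marks as repeat by lower case letters covered a median of 15.3% of the width. The median was 9.56% at MEF-only, 9.16% at shared intronic and 20.5% at mESC-only intergenic sites, and 9.56% over all peaks. Such sequence covered more than 50% of the width at 1288 sites (13.7%). The same was true of 1.29% of MEF-only intronic sites, 1.63% of shared intronic sites, 21.9% of mESC-only intergenic sites and 5.59% of all peaks. At least 90% of the width was repeat at 140 of the mESC-only intronic sites, whose median level was 10.4 CPM, against 8.98 CPM for the 3434 sites with under 10% repeat. Reads in repeats can map to several places. The study's methods kept only uniquely mapped reads, and how well these were placed in repeats was not tested here.

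The search for sequence patterns used 16 letter patterns on both strands of the whole 502 bp site, and shares are given beside those of all 91354 peaks, which have the same width. The octamer ATGCAAAT was found in 5.71% of the mESC-only intronic sites, 2.35% of the MEF-only and 2.44% of the shared intronic sites, 6.18% of the mESC-only intergenic sites and 3.21% of all peaks. The composite with up to 2 letters differing was found in 5.44, 1.65, 1.68, 6.09 and 2.43% of the same classes. Its letters contain 7 of the octamer's 8 letters and 6 of the 7 letters of the SOX pattern, so these 3 patterns are not independent. The SOX pattern itself, CATTGTT, was found in 8.98, 8.47, 6.59, 8.53 and 6.65%. The shares of the octamer and the composite at mESC-only sites were thus close inside and outside genes, and above those at the other intronic classes.

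The other patterns of pluripotency factors followed. The ESRRB letters TCAAGGTCA were found in 307 of the mESC-only intronic sites (3.27%) and in 0.663% of MEF-only, 0.942% of shared and 3.09% of mESC-only intergenic sites, with 1.42% among all peaks. The KLF letters GGGTGTGG were found in 10.5, 4.65, 7.46, 9.60 and 7.04%, in the same order of classes with all peaks last. Of the octamer, SOX, ESRRB and KLF patterns, 2 stood together in 220 of the mESC-only intronic sites and 3 in 12, and none of the 4 was found in 6963 (74.1%). The E-box CAGGTG, a form bound by the SNAI and ZEB repressors and by helix-loop-helix factors, was found in 42.1, 17.3, 32.2, 42.9 and 31.9%. The REST pattern AGCACCNNGGACAG, part of the element through which REST silences neuronal genes outside neurons, was in 70 mESC-only intronic sites (0.745%), 2 MEF-only sites (0.0204%), 0.407% of shared and 0.679% of mESC-only intergenic sites, and 0.356% of all peaks.

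The AP-1, TEAD and RUNX patterns of fibroblast factors were less frequent than at MEF-only sites. AP-1 (TGANTCA) was found in 21.1% of the mESC-only intronic sites, 46.1% of MEF-only, 28.8% of shared, 19.7% of mESC-only intergenic sites and 25.2% of all peaks. TEAD (ACATTCC) was found in 10.3, 19.1, 12.1, 11.3 and 11.3%, and RUNX (TGTGGTT) in 11.2, 17.1, 11.2, 9.52 and 10.9%. CTCF was in 8.51% of the mESC-only intronic sites, 4.65% of MEF-only, 24.0% of shared, 8.54% of mESC-only intergenic sites and 9.66% of all peaks. The MYC E-box (CACGTG; 7.88, 7.27, 7.94, 7.39 and 8.89%), STAT (TTCCNGGAA; 2.03, 2.22, 2.27, 2.29 and 2.09%), TCF-LEF (ATCAAAG; 7.31, 6.77, 6.16, 7.69 and 6.09%) and AP-2 (GCCNNNGGC; 14.9, 13.8, 19.7, 15.5 and 21.6%) were also searched, with the shares in the same order. NFI (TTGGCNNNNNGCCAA) was in 5 of the mESC-only intronic sites (0.0532%), 0.0510% of MEF-only, 0.0764% of shared, 0.0106% of mESC-only intergenic sites and 0.0526% of all peaks. A match is a run of letters, not an observed binding event, and the classes also differ in GC content and repeat share.

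**Figure D2:**
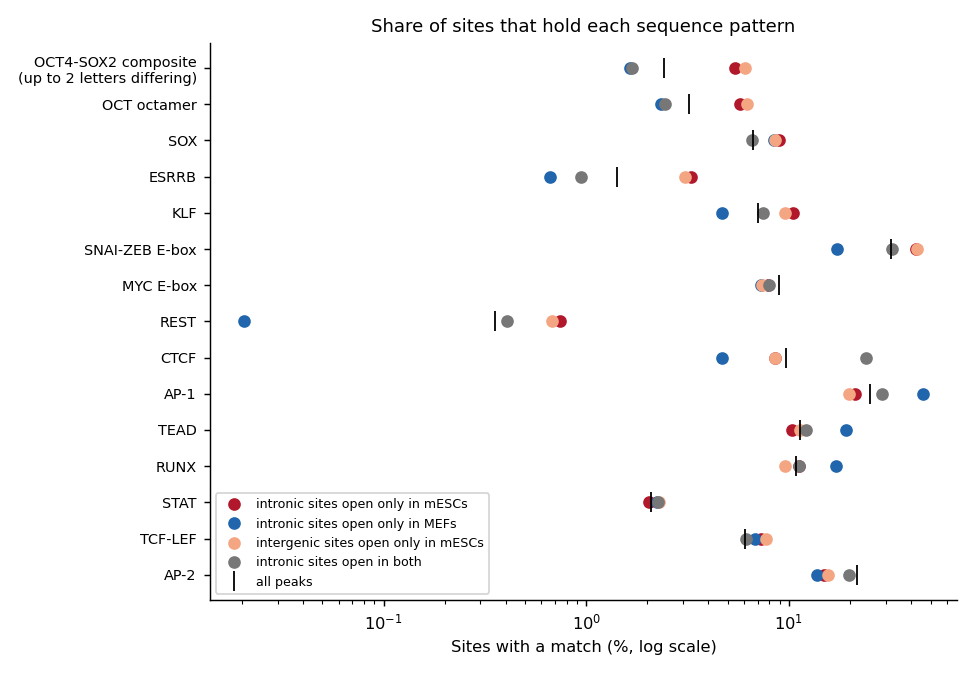
Share of sites, in % on a log axis, that hold each sequence pattern, for 4 classes of site (points) and all peaks (tick). The points of mESC-only sites inside and outside genes lie close together for the patterns drawn (NFI, with 5 sites, is not drawn), while those of MEF-only sites lie to the left for the composite, octamer, ESRRB, KLF, E-box and REST patterns and to the right for AP-1, TEAD and RUNX.

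Several of the patterns lay near the centre of the sites. If matches were spread evenly, 20.1% would lie within 50 bp of the centre. Within that distance lay 47.8% of the 527 matches to the composite with up to 2 letters differing, 43.6% of the 617 octamers, 42.5% of the 1156 KLF matches and 31.7% of the 312 ESRRB matches. At MEF-only intronic sites the same shares were 18.9, 21.4, 27.8 and 10.8%, and at mESC-only intergenic sites 45.01, 45.1, 40.3 and 27.0%. CTCF (62.9%) and REST (87.5%) were the most central at the mESC-only intronic sites. The MYC E-box (22.4%), RUNX (20.6%) and TCF-LEF (18.1%) had the shares nearest to the even value of the patterns with over 100 matches. In between lay SOX (26.0%; 19.8% at MEF-only sites), the CAGGTG E-box (25.4%; 7.51%), AP-2 (29.3%; 24.3%) and STAT (29.4%; 29.1%). AP-1 and TEAD matches were central in both classes, with 39.6 and 32.0% at mESC-only and 54.7 and 44.8% at MEF-only intronic sites.

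**Figure D3:**
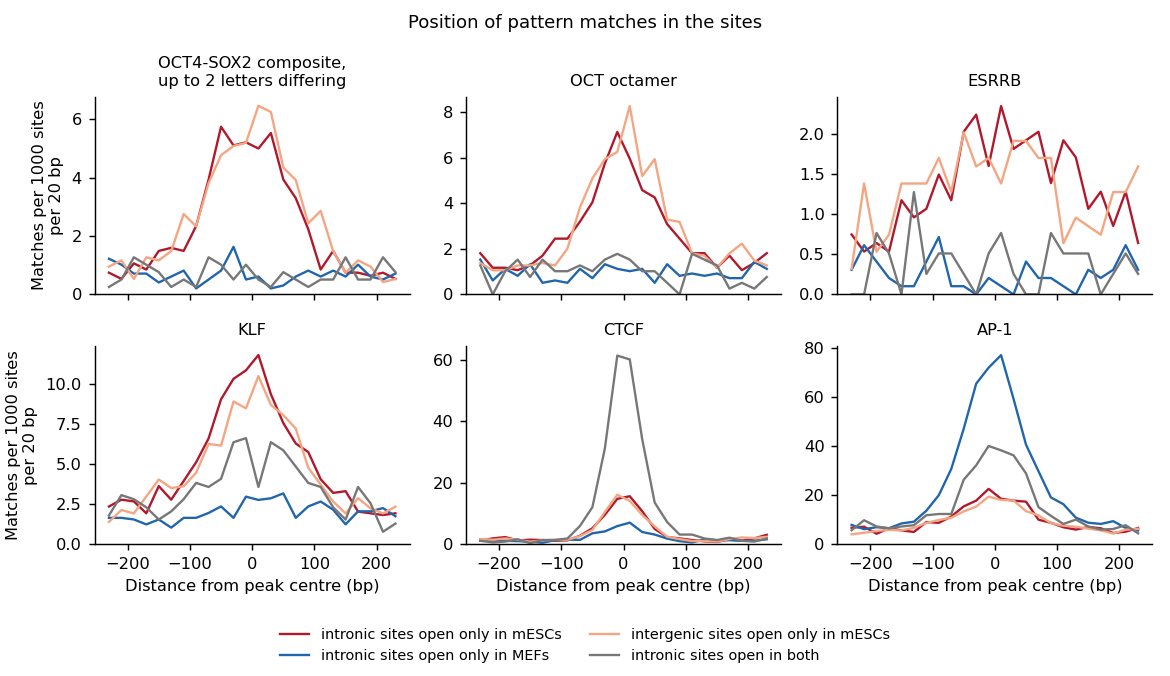
Matches per 1000 sites in 20 bp bins against the distance from the peak centre in bp, for 6 patterns and 4 classes of site (lines). At mESC-only sites the composite, octamer, KLF and CTCF matches peak at the centre, while the tallest lines belong to the shared sites for CTCF and to the MEF-only sites for AP-1.

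Sites with OCT4-type letters had higher median levels in mESCs and lower ones in MEFs than sites without them. The 511 sites with a composite of up to 2 differing letters had a median of 10.5 CPM in BGI mESCs and 0.744 CPM in BGI MEFs, against 8.89 and 1.20 CPM for the others, and their median log2 ratio was 3.86 against 2.92. The 536 octamer sites had a median log2 ratio of 3.54 against 2.94. CTCF sites went the other way: the 799 sites with the pattern had a median of 7.62 CPM in mESCs and 1.92 CPM in MEFs, and a log2 ratio of 1.98 against 3.07. The 70 REST sites had the lowest median log2 ratio of the patterns, 1.80, with 2.46 CPM in MEFs. These medians are descriptions across sites that share libraries.

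Ordered by mESC level, the sites held different shares of the patterns. Of the 940 sites with the lowest level (3.33 to 5.93 CPM) 18.1% held the CTCF pattern, and of the 940 with the highest (19.2 to 81.2 CPM) 4.04% did. The composite with up to 2 differing letters went from 3.09 to 8.62%, KLF from 6.70 to 12.02%, TEAD from 7.13 to 13.6% and the octamer from 4.57 to 6.81%. AP-1 stood at 19.8 and 25.1%. Peak calling favours sites with more reads, and its part in these gradients was not tested. In the 140 sites that were at least 90% repeat, 17.1% held the octamer, against 5.53% of the sites with under 10% repeat, but 1.43% held the composite. The ESRRB letters were in 2.24% of sites with under 10% repeat, 3.92% at 10 to 50%, 4.07% at 50 to 90% and 0% of the 140. The part of repeats in the differences between classes was not tested.

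The 10 sites with the highest mESC level lay in genes of diverse function. The highest of all, in intron 9 of Celf5, an RNA-binding protein, had 76.8, 84.7 and 82.0 CPM in the BGI mESC libraries and 2.86, 5.57 and 4.18 CPM in the BGI MEF libraries. A site in intron 2 of Gpx4, the selenoenzyme that repairs lipid peroxides, had 61.5, 69.6 and 65.0 CPM in mESCs and 2.12, 2.98 and 1.64 CPM in MEFs. This Gpx4 site is the one shown above with the ESRRB letters, and it also held the SOX and KLF patterns. The site in intron 2 of Tfcp2l1 shown above with a near composite had 64.1, 57.3 and 58.0 CPM in mESCs and 0.923, 1.09 and 0.797 CPM in MEFs. In all of these the lowest mESC library was far above the highest MEF library, which the choice of the highest mESC sites favours. The other 7 lay in Dusp27, Tsc22d1, Etl4, Pcsk6 (a proprotein convertase), Atp6v1h (a subunit of the vacuolar proton pump), Rbpms (an RNA-binding protein) and Cdyl2 (a chromodomain protein). Their mean levels were 58.7 to 66.4 CPM in BGI mESCs, with log2 ratios from 3.65 (Rbpms) to 6.34 (Dusp27).

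Sites in pluripotency factor genes lay mostly in Esrrb, Trim71 and Tfcp2l1. Of 33 such genes, 10 (30.3%) held 41 mESC-only intronic sites, or 58.7 sites per Mb of gene body, and 2 MEF-only intronic sites, or 2.87 per Mb. Over all protein-coding genes the densities were 7.77 and 8.08 per Mb, and 18.6% held a mESC-only intronic site. The median log2 ratio of the 41 sites was 3.50, beside 2.98 over all mESC-only intronic sites; the other 8 gene groups below had medians from 2.01 (Nodal-BMP) to 3.92 (LIF-STAT3). Esrrb and Trim71, which encodes an RNA-binding ubiquitin ligase that acts on developmental timing, held 14 sites each and Tfcp2l1 held 6. L1td1, Tbx3, Sall1, Mycn, Dppa2 and Zscan10 were among those that held 1 each, and the remaining genes of the group, among them Pou5f1, Sox2, Nanog and Klf4, held none. Within Esrrb, 10 sites lay within 39.2 kb with no gap above 10 kb, and the 14 sites of Trim71 lay within 35.4 kb.

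The highest Esrrb site, in intron 3 at chr12:86501685-86502186, had 60.1, 64.6 and 51.3 CPM in the BGI mESC libraries, and 55.1, 65.3 and 47.0 CPM on Illumina. Its MEF values were 0.646, 0.497 and 0.996 CPM on BGI and 0.458, 0.586 and 0.0969 CPM on Illumina. The log2 ratio was 6.29 ± 0.18 on BGI and 7.12 on Illumina, and library 5 was the lowest mESC library on both platforms. The highest Trim71 site, in intron 1, had 32.5, 31.3 and 32.0 CPM in BGI mESCs and 1.20, 0.994 and 1.84 CPM in BGI MEFs. L1td1, which encodes an RNA-binding protein of mESCs, held its site 1074 bp from its TSS, with 30.6, 34.1 and 28.8 CPM in mESCs and 4.80, 4.22 and 4.88 CPM in MEFs. The MEF level of the L1td1 site was thus several times that of the Esrrb and Trim71 sites.

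Genes of the enzymes that write and remove DNA methylation also held sites. The 10 genes of this group held 26 sites in 7 genes (beside 18.6% of all protein-coding genes with a site; 42.8 per Mb, against 13.2 per Mb for MEF-only sites), with 11 in Tet1 and 7 in Tet2, which oxidise methylated cytosine, and 4 in Dnmt3a, a de novo methyltransferase. The highest Tet2 site, in intron 1, had 27.9, 27.1 and 25.03 CPM in BGI mESCs and 0.785, 0.746 and 0.647 CPM in BGI MEFs. The highest Tet1 site, also in intron 1, had 18.2, 14.96 and 12.6 CPM and 1.02, 1.34 and 0.597 CPM. The Dnmt3a site had 17.3, 16.6 and 17.5 CPM and 1.38, 1.29 and 1.99 CPM. A single site in Dnmt3l, the catalytically inactive partner of the de novo enzymes, had a mean of 12.5 ± 1.75 CPM (SD, n = 3) in mESCs and 0.326 ± 0.111 CPM in MEFs. Cell types did not overlap on BGI at these 4 sites, as at 98.7% of all mESC-only intronic sites and 42.9% of all peaks. Nothing is read from this, because the lists chose the sites.

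In the LIF-STAT3, Wnt and Nodal-BMP signalling groups mESC-only sites were fewer than MEF-only sites, as they were over all protein-coding genes (8321 and 8657). Their densities of mESC-only sites were 14.6, 15.6 and 9.49 per Mb, and of MEF-only sites 18.3, 22.0 and 27.4 per Mb, beside 7.77 and 8.08 per Mb over all protein-coding genes. The LIF-STAT3 group, whose pathway keeps mouse ESCs self-renewing, held 8 mESC-only and 10 MEF-only intronic sites, and the highest site in Lifr, the LIF receptor, had 19.3, 17.4 and 19.9 CPM in mESCs and 0.739, 0.447 and 0.797 CPM in MEFs. The sites named in the adaptor Grb2, the kinase Jak2 and the co-receptor Il6st had mean levels of 7.17, 12.8 and 7.67 CPM in mESCs and 0.425, 0.644 and 0.503 CPM in MEFs. The Lifr site also held the STAT letters, as did 2.03% of all mESC-only intronic sites. The Wnt group held 27 mESC-only and 38 MEF-only sites, with 9 in the repressor Tcf7l1 and 6 in the kinase Gsk3b. Its named sites in Tcf7l1, Gsk3b, Apc and Lrp5 had log2 ratios of 2.52, 3.72, 3.11 and 1.71. The Nodal-BMP group held 9 and 26; its sites in Smad6, Ski, Bmpr1a and Acvr2b had log2 ratios of 2.41, 2.01, 3.09 and 2.75.

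The FGF-ERK group, whose signals drive mESCs out of the naive state, held 65 mESC-only and 46 MEF-only sites when a site was assigned to its longest protein-coding gene. The 65 lay in 10 of 22 genes (45.5%, beside 18.6% of all protein-coding genes). The densities were 16.8 and 11.9 per Mb, beside 7.77 and 8.08 over all protein-coding genes. Of the 65 sites, 33 were credited to Fgfr2, whose gene model spans 2.96 Mb in this annotation, and 23 of the 33 also lay in another protein-coding gene. The highest of them is one of these: it lies 2200 bp from the TSS of Ctbp2, a transcriptional co-repressor, and had 60.9, 57.9 and 52.7 CPM in mESCs and 1.62, 1.99 and 2.64 CPM in MEFs. With the shortest gene as host the group held 42 sites and 34 MEF-only sites. Fgf4, the main FGF ligand of mESCs, held 4 sites and no MEF-only site, and its highest, in intron 1, had 20.1, 26.6 and 17.2 CPM in mESCs and 0.231, 0.746 and 0.797 CPM in MEFs. Spred2, an inhibitor of the pathway, held 10 sites, and Sos1, which activates RAS, held 4, with mean levels of 12.2 and 28.2 CPM at the highest.

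Polycomb genes held 22 sites in 9 of 28 genes (32.1%, beside 18.6% of all protein-coding genes; 18.3 per Mb, against 7.5 per Mb for MEF-only sites). Kdm2b, which brings Polycomb to CpG islands, held 6 and Cbx7, a subunit of Polycomb repressive complex, held 5. The named site of Kdm2b had 13.3 ± 2.95 CPM (SD, n = 3) in mESCs and 0.386 ± 0.163 CPM in MEFs. That of Cbx7 was far less distinct, with 10.3, 7.86 and 8.82 CPM against 3.74, 4.32 and 3.78 CPM, a log2 ratio of 1.12 ± 0.20. The sites in Jarid2 and Mtf2, accessory subunits of the methyltransferase complex, had log2 ratios of 4.34 and 4.98.

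Epithelial genes, which mESCs express as tightly joined colonies, held 43 sites in 9 of 20 genes (beside 18.6% of all protein-coding genes; 27.5 per Mb, against 6.39 per Mb for MEF-only sites). Cdh1, the gene of E-cadherin, held 13 sites and no MEF-only intronic site, and 8 of them lay within 13.4 kb. Its highest site had 29.6, 19.99 and 24.7 CPM in mESCs and 1.89, 0.696 and 1.05 CPM in MEFs. The tight junction gene Tjp1 held 6, with a highest site of 38.9 ± 0.469 CPM (SD, n = 3) in mESCs and 1.25 ± 0.469 CPM in MEFs. The polarity gene Pard3 held 8, and at its highest the MEF level was 3.02 CPM, with a log2 ratio of 2.15.

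Fibroblast genes were the one group with a lower density of mESC-only sites than protein-coding genes at large, at 6.17 per Mb, and had 31.7 MEF-only sites per Mb. The 22 mESC-only sites lay in 8 of these 32 genes, or 25%, beside 18.6% of all protein-coding genes, with 8 of them in Tead1 and 4 each in Nfib and Tcf4, which encode transcription factors. The highest in Tead1 had 23.3, 18.3 and 16.6 CPM in mESCs and 2.03, 3.38 and 2.64 CPM in MEFs. A site in intron 5 of Fn1, the gene of the matrix protein fibronectin, had 10.2, 11.7 and 11.9 CPM in mESCs and 0.554, 0.596 and 1.05 CPM in MEFs. Both cell types therefore had their own intronic sites in such genes: Tead1 held 7 MEF-only sites and Nfib 9.

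**Figure D4:**
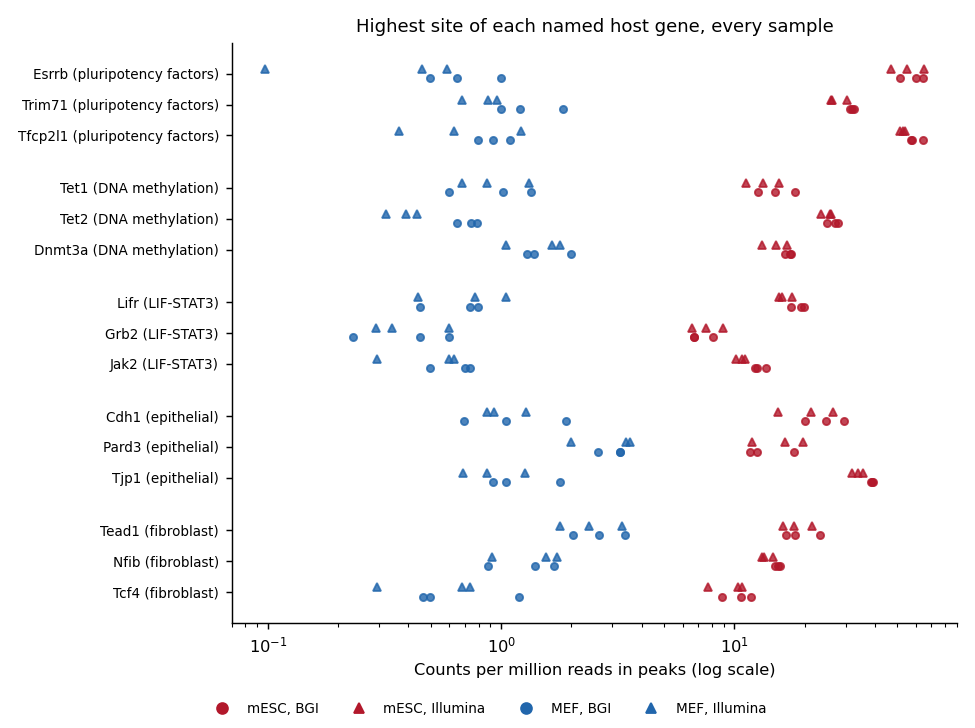
Level in every sample of the highest mESC-only intronic site of 15 host genes, 3 in each of 5 gene groups, in CPM on a log axis; circles are BGI and triangles Illumina samples, red mESC and blue MEF. At each site the 6 mESC samples lie to the right of the 6 MEF samples, which the choice of sites favours. The gap is narrowest at Pard3 and widest at Esrrb.

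The host genes with the most sites were mostly long ones. Gm20388, a gene model of 4.43 Mb on chromosome 8, was credited with 87 sites, of which 50 also lay in another protein-coding gene. After it and Fgfr2 came Etl4 (27 sites), the RNA-binding protein gene Msi2 (24), the cytoskeletal linkers Macf1 (17) and Dst (16), Rnf220 (16), the Notch effector Rbpj (16), the kainate receptor gene Grik3 (15) and Tns3 (15). Relative to length, Rbpj (83.7 sites per Mb), Rnf220 (70.9), Grik3 (67.1) and Tns3 (64.4) were the densest of the 10. Grik3 also held the most sites with a composite of up to 2 differing letters, 5 of its 15, and 1 MEF-only intronic site. Summed over its 15 sites, Grik3 had 186, 170 and 170 CPM in BGI mESC libraries and 17.0, 17.8 and 21.6 CPM in BGI MEF libraries. In Macf1 14 of the 17 sites lay within 56.6 kb.

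The contrast between sequencers within mESCs was tested across all mESC peaks. Its values at the sites are conditioned on the choice of sites, because each had to be a peak of the BGI set and to overlap the mESC lists of both platforms, which leaves out sites found on 1 platform only. The question was whether BGI and Illumina reads of the same libraries gave the same accessibility at these sites. The mESC peak set of both platforms held 67063 peaks, and the 9392 sites matched 9373 of them by at least 50% of the site's width. The values at single sites below are those of the matched peaks, which can reach beyond the site. The share of peak reads in the sites was 10.5 ± 0.253% on BGI and 9.68 ± 0.240% on Illumina (SD, n = 3 libraries each), a difference of 0.812 percentage points that was seen in 3 of 3 libraries. The exact permutation test (both-sided) gave p = 0.1, the smallest value that 3 against 3 allows, and the exact sign-flip permutation test over libraries gave p = 0.25, the smallest that 3 libraries allow. The other classes of site also held larger shares on BGI in each mESC library. In libraries 1, 3 and 5, mESC-only intergenic sites held 10.9, 10.8 and 10.97% on BGI and 10.2, 10.05 and 10.1% on Illumina. Shared intronic sites held 5.32, 4.93 and 5.29%, and then 5.01, 4.58 and 4.95%. MEF-only intronic sites held 1.73, 1.44 and 1.63%, and then 1.56, 1.32 and 1.48%. A higher BGI share was thus not particular to the mESC-only intronic sites.

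At single sites the platform differences were small. The median log2 ratio of BGI over Illumina, fitted without pairing, was 0.08 at the sites and 0.01 over all peaks of the set, 73.2% of the sites and 52.8% of all peaks were above 0, and no site differed by 1 or more. In edgeR without pairing, 2 sites were higher on BGI (0.0418% of all peaks were) and 3 were lower (3.19% of all peaks were), at a Benjamini-Hochberg adjusted p under 0.05. With library number as a block, 733 sites were higher (5.78% of all peaks) and 103 were lower (15.6% of all peaks). The same libraries were read on both instruments, so the block compares each library with itself, and its p-values measure the spread between sequencing runs. With the block 7.82% of the sites were called higher on BGI and 1.10% lower. How far the choice of sites set these shares was not tested.

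The platform differences with the lowest p-values were below 2-fold. Values, coordinates and GC content in this paragraph are those of the matched peaks. These were wider than the 502 bp sites, so part of their reads can come from sequence outside the site. A site in Larp4b (chr13:9107435-9107950) had 16.9, 15.7 and 16.2 CPM on BGI and 10.4, 10.04 and 7.94 CPM on Illumina in libraries 1, 3 and 5, with no overlap (log2 ratio 0.73 ± 0.13, edgeR adjusted p = 0.0111 unpaired and 4.70e-13 with the block). A site in Zmat4 had 23.8, 30.8 and 23.8 CPM on BGI and 13.8, 19.8 and 15.7 CPM on Illumina (0.62 ± 0.15, edgeR adjusted p = 0.0408). In the other direction, a site of 67.2% GC in Shh (chr5:28464368-28465413), the gene of the morphogen Sonic hedgehog, had 14.8, 19.7 and 18.7 CPM on BGI and 21.7, 27.7 and 31.8 CPM on Illumina (-0.66 ± 0.14, edgeR adjusted p = 0.0267). Sites in Tmem267 (-0.63 ± 0.13, edgeR adjusted p = 0.0213) and Drosha, the nuclease that starts microRNA processing (-0.44 ± 0.11, edgeR adjusted p = 0.0486), were also lower on BGI. Every BGI library was on the same side of its own Illumina run at these 5 sites. In the fit without pairing, none of these 5 calls held without library 1 (0 sites called, 214 at an unadjusted p under 0.05) or without library 5 (0 and 85), and without library 3 the calls in Shh and Drosha were lost (3 and 302). The log2 ratios without library 1 and without library 5 were 0.77 and 0.63 in Larp4b, 0.57 and 0.65 in Zmat4, -0.63 and -0.62 in Tmem267, -0.68 and -0.56 in Shh, and -0.45 and -0.40 in Drosha. Over all 67063 peaks of the set, 1, 1373 and 0 were called in the unpaired fit without library 1, 3 and 5. In the fit with the block, each of the 5 calls was also made without library 1, 3 or 5. With the block, a site in Ak5 joined them as higher on BGI (0.46 ± 0.08, edgeR adjusted p = 3.48e-07; 0.118 without the block).

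GC content moved with the platform ratio, at the sites as elsewhere. In the blocked fit the median log2 ratio of the sites was 0.10 at 40 to 45% GC and 0.09 at 45 to 50%, and -0.05 at the 130 sites of 60% GC and over. Other peaks of the set had medians of 0.08, 0.09 and -0.23 in the same bins. The last bin held 130 of the 9373 matched sites but 15259 of the other peaks. The part of GC content in the platform difference was not tested.

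**Figure D5:**
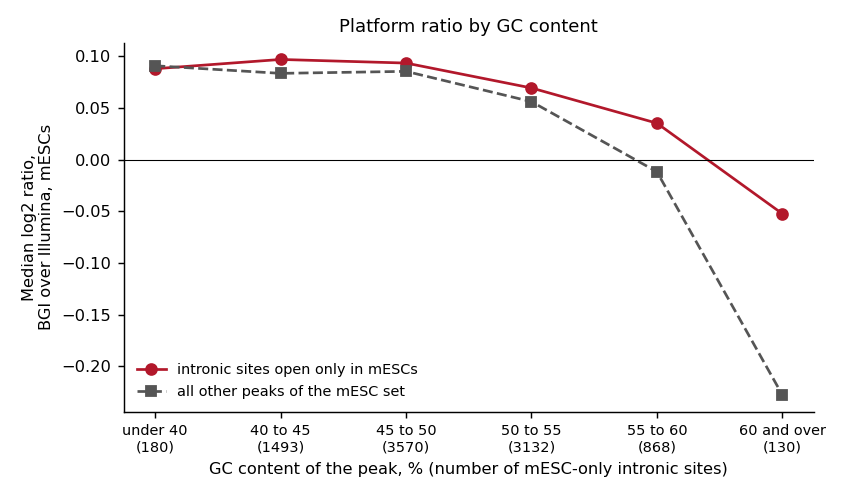
Median log2 ratio of BGI over Illumina in mESCs, fitted with library number as a block, against GC content of the peak in bins, for the mESC-only intronic sites (circles, their number below each bin) and all other peaks of the mESC set (squares). Both lines lie near 0.09 below 50% GC and fall toward high GC, where the other peaks reach -0.23 and the sites -0.05.

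The replicate libraries differed at single sites, in part in the same way on both machines. The median coefficient of variation over the 3 mESC libraries was 12.5% at the sites on BGI and 12.6% on Illumina, next to 13.7 and 13.5% over all peaks. Library 1 was the highest of the 3 at 3497 sites on BGI and 3737 on Illumina, library 5 at 3485 and 3210, and library 3 at 2410 and 2445. At 2328, 1937 and 1447 sites respectively, library 1, 5 or 3 was the highest on both instruments. The deviation of a library from its group mean was shared between its runs, with correlations across the sites of 0.678, 0.730 and 0.551 for libraries 1, 3 and 5, and of -0.510 to -0.169 between different libraries, which are negative in part by construction because deviations from a mean of 3 sum to 0. The cause of the differences among the libraries was not tested.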

How the data were processed

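Per the labels and the study's methods, the authors trimmed the longer Illumina reads to the BGI length, down-sampled reads within each cell type and called peaks in each sample with MACS2 on mm10, the build and caller that the submitters' processing notes name. The deposited count tables hold the authors' whole-number read counts per peak of merged peak sets, and the deposited peak files hold, per sample, MACS2's summit score, its fold enrichment (a ratio) and its -log10 p. Library columns that name no platform were taken as Illumina, since the other columns name BGI. Each library's ratio of BGI to Illumina counts correlated across peaks with the same ratio of MACS2 fold values (Pearson r 0.774 to 0.818 over the 6 libraries).

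Positions were classed with GENCODE M21 on GRCm38, the assembly of mm10. A site was assigned to its longest protein-coding gene, and sequence came from RefSeq GRCm38.p6, which gave none for 69 of the 91354 peaks. Introns were numbered on the longest of the host's transcripts that span the site, with those annotated as principal taken first. The transcript can thus differ between sites of a gene and can be a short one. Counts were scaled by TMM and tested with the quasi-likelihood test of edgeR 4.0.16 (R 4.3.3), Benjamini-Hochberg adjusted over all peaks tested at 0.05. DESeq2 1.42.0, RLE scaling, no filter, another peak set, each library left out and library number as a block were the alternatives. Values after ± are SD over 3 libraries, or SE beside a log2 ratio.

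Library numbers paired the samples, since the same library was read on both machines, and the correlations of deviations from group means were 0.551 to 0.730 in the members. The labels name 3 biological replicates a group. Unpaired p-values measure the spread between those libraries, and with the block they measure technical spread between runs. Named sites were the 10 highest in mESCs, the highest site of up to 4 genes of each of 9 gene lists and of the 10 genes with the most sites, those nearest the limits of the rule, and, among the platform calls, the 3 lowest p-values in each direction of each fit. The members and lists were chosen with earlier results of these data known. The GC bins, level groups, repeat bins, gaps of 10 kb, the composite with differing letters, the shortest host and the windows in Esrrb, Dnmt3a, L1td1 and Tet1 were chosen after seeing the data. Some genes of the lists are not reported here by name.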

Additional observations from a re-analysis of the deposited data

How the results depend on the processing

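The number of mESC-only intronic sites was between 8465 and 9962 under the other TSS distances, the 50% overlap and the Illumina peak set. The count of sites called between cell types ranged from 9213 to 9260 at an adjusted p under 0.05, and from 9108 to 9218 with 1 library left out, and was 8693 when a log2 size of at least 1 was also required; these are descriptions. The share of sites with the OCT4-SOX2 composite was 0.0319% with exact letters and 5.44% with up to 2 letters differing. With the shortest gene as host, the FGF-ERK sites went from 65 to 42. In the platform comparison 5 sites were called by edgeR without pairing, 836 with the replicate block, 3 in the BGI peak set, 4 with RLE scaling, 5 without a filter and 6 by DESeq2 (175 at an unadjusted p under 0.05, with 5105 adjusted values missing). Leaving out 1 library gave 0 to 3 calls without the block and, with the replicate block, 539, 408 and 480 calls without library 1, 3 and 5. Over all 67063 peaks, 2164 were called without pairing, with or without the filter, 14304 with the block, 1563 with RLE scaling and 2135 by DESeq2. The BGI peak set gave 1715 of 83518. Without library 1, 3 and 5, the calls over all peaks were 1, 1373 and 0 without the block and 11176, 9118 and 10629 with it. The median platform log2 ratio of the sites was 0.08 with TMM and 0.10 with RLE scaling. The call in Drosha was also lost with RLE scaling (adjusted p = 0.0699) and DESeq2 (adjusted p = 0.0679), and that in Ak5 was made with the block in every library left out. No direction reversed under any alternative run. For the reads share the design allows no p under 0.1. A MEF median of 22 to 25 reads a site limits the precision of single MEF values.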
